A study of Mus musculus with 37 samples.

Results

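The 33 genes described here encode the transporters and enzymes of glycolysis, the regulators of its flux, and a group of genes known for their response to low oxygen. They were taken as a list of symbols and followed through every library of the series, among 30892 genes of the table for cardiac fibroblasts (CFs), 20158 of the table for neonatal rat ventricular myocytes (NRVMs) and 31053 of the single-cell tables. In CFs, 32 of the 33 passed the filter on low counts, and Car9, which had 44 reads in all 20 libraries together, was not tested. In NRVMs, 30 of the 33 were tested. Tpi1 had 75 reads in all NRVM libraries and was left out, and Slc2a3 and Pfkfb4 were not analysed here in the rat table.

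The study asked how extracellular ATP and its hydrolysis by the ectonucleotidase ENPP1 shape the exchange between cardiomyocytes and nonmyocytes. CFs from wild type C57BL/6 mice, immortalized with the SV40 antigen, were held in serum-free high glucose DMEM with insulin, transferrin and selenium and then given conditioned medium, collected per the study's methods from NRVMs that had received vehicle, ENPP1, ATP, ENPP1+ATP or AMP, for 24 or 48 h (2 libraries per medium and time, 20 in all). NRVMs from wild type Sprague-Dawley rats were, per the labels, given conditioned medium of the same 5 kinds and sequenced after 24 h (3 libraries each, 15 in all). Nonmyocytes of C57BL/6 hearts were sequenced as single cells at 7 days after ligation of the left anterior descending artery, with 1 library from ENPP1CKO animals (Col1a2CreERT; ENPP1 fl/fl, with tamoxifen from 5 days before injury to 7 days after it) and 1 from control animals labelled wild type. The Cre driver acts in cells that express Col1a2, the CFs are an immortalized line, and the number of hearts behind a single-cell library and the doses of ATP and AMP are not given in the sources used here.

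Library totals were 32184799 to 115824659 reads in CFs and 13481389 to 16977980 in NRVMs. The fibroblast markers were present in CFs and the cardiomyocyte markers summed to 13.6 to 26.8 CPM there (reads scaled by library size), whereas NRVM libraries held both cardiomyocyte markers (25220 to 46480 CPM) and fibroblast markers (8860 to 26190 CPM). No pair of replicates agreed within sampling noise. The study's methods call its replicates biological, and since neither they nor the labels say whether these were separate cultures, the p-values measure the spread between these libraries. In bulk libraries fewer cells of a type and less RNA per cell cannot be told apart.

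Glycolysis splits glucose into pyruvate in the cytosol, and lactate dehydrogenase turns pyruvate into lactate when little of it enters mitochondria. When oxygen is low, the hypoxia-inducible factors escape hydroxylation by the EGLN enzymes, bind DNA at sites with the core letters ACGTG or GCGTG, and raise transcription of glucose transporters, most glycolytic enzymes and genes of mitochondrial turnover, angiogenesis and collagen hydroxylation. In the injured heart this program is known from ischemic muscle, from wound macrophages and from fibroblasts that lay down scar.

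Promoters of some members that changed in the same direction in every one of 4 CF comparisons (ENPP1+ATP and AMP, each at 24 and 48 h) are shown because they carry or lack the first of these cores. Those of P4ha1, Pfkm, Gapdh and Pfkfb4 are described without their sequence. Of these, Gapdh and Pfkfb4 fell and lack ACGTG. The 250 bases before the start site were read from RefSeq on GRCm38.p6, where 30 of the 33 members had an entry. Ndrg1, Slc2a3 and Bhlhe40 had none. The motif ACGTG was searched on both strands, that is as ACGTG or CACGT, and it overlaps the E-box CACGTG. It was present in the first entry of 15 of the 30 members (50%) and of 16.6% of all 27025 genes. The other core, GCGTG (or CACGC), was present in 17 of the 30 (56.7%, beside 28.2% of all genes), and either core in 25 (83.3%, beside 38.6%). Among the 8 members that fell in all 4 comparisons (11.7% of all genes tested fell in all 4), Slc2a1 at chr4:119108495-119108744 (plus strand) held 1 match that begins 36 bases before the start, Hk2 at chr6:82774455-82774704 (minus strand) held matches at 226 and 52 bases, and P4ha2 at chr11:54100674-54100923 (plus strand) held 1 at 78 bases. Both members that rose in all 4 (10.6% of all genes did), Gpi1 at chr7:34230337-34230586 (minus strand) and Kdm3a at chr6:71632918-71633167 (minus strand), held no ACGTG in this window, and Kdm3a held 1 GCGTG at 27 bases. Sequences run 5′ to 3′ on the strand of the gene, and capitals mark the matches of ACGTG.
Slc2a1: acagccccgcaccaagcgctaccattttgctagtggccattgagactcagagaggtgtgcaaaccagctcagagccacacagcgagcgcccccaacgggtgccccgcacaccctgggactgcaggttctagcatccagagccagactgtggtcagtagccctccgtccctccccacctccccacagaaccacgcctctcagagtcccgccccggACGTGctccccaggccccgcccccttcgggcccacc
Hk2: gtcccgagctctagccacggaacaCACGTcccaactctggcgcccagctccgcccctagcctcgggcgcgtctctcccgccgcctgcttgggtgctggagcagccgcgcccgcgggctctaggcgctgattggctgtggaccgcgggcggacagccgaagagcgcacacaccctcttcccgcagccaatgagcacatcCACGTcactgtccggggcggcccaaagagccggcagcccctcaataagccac
P4ha2: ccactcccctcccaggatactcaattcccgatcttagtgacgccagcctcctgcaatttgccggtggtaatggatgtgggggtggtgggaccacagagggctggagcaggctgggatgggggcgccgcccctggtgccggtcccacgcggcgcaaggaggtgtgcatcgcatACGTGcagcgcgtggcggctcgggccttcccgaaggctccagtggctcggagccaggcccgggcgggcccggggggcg
Gpi1: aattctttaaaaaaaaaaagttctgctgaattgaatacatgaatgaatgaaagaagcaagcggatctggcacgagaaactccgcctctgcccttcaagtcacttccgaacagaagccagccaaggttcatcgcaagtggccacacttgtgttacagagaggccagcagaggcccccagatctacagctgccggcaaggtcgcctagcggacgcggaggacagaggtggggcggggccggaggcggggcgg
Kdm3a: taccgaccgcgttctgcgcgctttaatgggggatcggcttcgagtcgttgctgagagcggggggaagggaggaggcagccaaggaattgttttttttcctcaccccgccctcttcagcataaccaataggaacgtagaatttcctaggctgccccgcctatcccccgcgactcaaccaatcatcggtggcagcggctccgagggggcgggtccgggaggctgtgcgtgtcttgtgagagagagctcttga
Of the other members that fell in all 4 comparisons, P4ha1 held a match at 16 bases and Pfkm held the E-box form at 136 bases in its first entry, while Gapdh and Pfkfb4 held none of ACGTG. Of the other Pfkm entries, the second held a match at 244 bases without the E-box, and the rest held none. The core GCGTG was in Slc2a1, Gapdh, Pfkfb4, P4ha1 and P4ha2 and not in Hk2, Pfkm or Gpi1. A match is a description of letters and not a binding site.

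CFs given ENPP1+ATP conditioned medium had less RNA of the main glucose transporter, of the inducible hexokinase and of both collagen prolyl hydroxylase subunits at 24 and at 48 h, and more of glucose phosphate isomerase. At 24 h, 19 members fell and 6 rose against vehicle, so that 78.1% of the 32 tested were called, beside 49.1% of all genes, 25.3% falling and 23.9% rising (edgeR's quasi-likelihood test, adjusted p below 0.05). At 48 h, 17 fell and 5 rose (68.8%, beside 45.2% of all genes, 24.4% falling and 20.8% rising). AMP conditioned medium gave 20 falls and 5 rises at 24 h (78.1%, beside 52.8% of all genes, 27.5% falling and 25.3% rising) and 10 falls and 7 rises at 48 h (53.1%, beside 44% of all genes, 22.9% falling and 21.1% rising). The median log2 change of the members was −0.25 at 24 h and −0.34 at 48 h with ENPP1+ATP, and −0.30 and −0.18 with AMP, against medians between −0.03 and 0.00 over all genes tested. The comparisons with ENPP1+ATP and with AMP share their vehicle libraries. The members Slc2a1, Hk2, Pfkm, Gapdh, Pfkfb4, Ndrg1, P4ha1 and P4ha2 fell in all 4 comparisons (8 of 32, or 25%, beside 11.7% of all genes), and Gpi1 and Kdm3a rose in all 4 (2 of 32, or 6.25%, beside 10.6%).

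**Figure D1:**
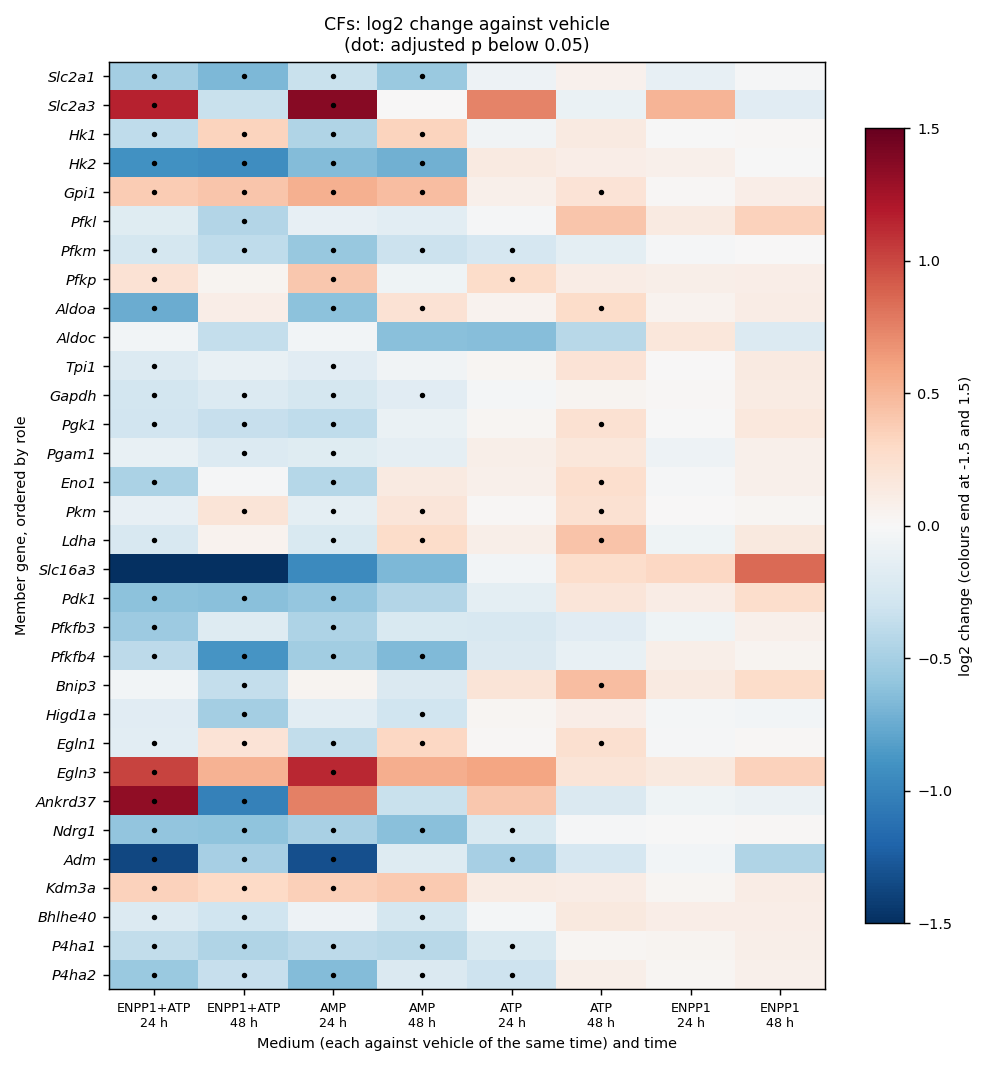
Log2 change of 32 members (rows, ordered by role) in CFs for 4 media at 24 and 48 h against vehicle of the same time (columns), with blue for lower, red for higher and a dot where the adjusted p was below 0.05. The columns of ENPP1+ATP and AMP are mostly blue at 24 h, Hk1 and Egln1 turn from blue to red by 48 h, and no ENPP1 column has a dot.

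Glucose enters the cell through the transporters of this list. Slc2a1, which encodes the basal glucose transporter GLUT1, was at 87.0 and 83.1 CPM in the 2 vehicle libraries at 24 h, at 58.7 and 61.1 CPM with ENPP1+ATP, and at 66.2 and 68.8 CPM with AMP. At 48 h it was at 84.9 and 82.98 CPM in vehicle, 52.2 and 53.4 CPM with ENPP1+ATP, and 55.2 and 58.6 CPM with AMP. Every library of both media was below both vehicle libraries at each time. The log2 change was −0.51 ± 0.06 (SE) at 24 h and −0.67 ± 0.06 at 48 h with ENPP1+ATP, and −0.33 ± 0.06 and −0.56 ± 0.06 with AMP. Slc2a3, the high-affinity transporter GLUT3, was scarce, at 0.394 and 0.432 CPM in vehicle at 24 h, 1.00 and 0.838 CPM with ENPP1+ATP and 0.973 and 1.14 CPM with AMP. It rose at 24 h by 1.16 ± 0.44 (adjusted p = 0.0324) and 1.36 ± 0.43 (adjusted p = 0.0103) on the log2 scale. Its values at 48 h (−0.34 and 0.00) were not called.

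Among the enzymes that carry glucose to triose phosphate, Hk2, the inducible hexokinase of the outer mitochondrial membrane, was lowered most. Its level was 54.6 and 63.4 CPM in vehicle at 24 h, 30.4 and 32.5 CPM with ENPP1+ATP, and 34.5 and 40.3 CPM with AMP. At 48 h it was 46.1 and 50.1 CPM in vehicle, 24.7 and 25.6 CPM with ENPP1+ATP, and 26.2 and 32.2 CPM with AMP. No library of these media reached the vehicle level at either time, and the log2 changes were −0.90 ± 0.09 and −0.93 ± 0.10 with ENPP1+ATP and −0.65 ± 0.09 and −0.72 ± 0.09 with AMP. Gpi1, which converts glucose 6-phosphate to fructose 6-phosphate, went the other way. It was at 258 and 252 CPM in vehicle at 24 h, 334 and 330 CPM with ENPP1+ATP and 377 and 360 CPM with AMP, and at 48 h at 245 and 258, 328 and 343, and 335 and 357 CPM. Its groups did not overlap, with log2 changes of 0.38 and 0.41 with ENPP1+ATP and 0.53 and 0.46 with AMP (SE 0.06 each).

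Hk1, the constitutive hexokinase, and Aldoa, the aldolase of muscle and most other tissues, were lower at 24 h and not at 48 h. Hk1 was at 273 and 261 CPM in vehicle, 203 and 209 CPM with ENPP1+ATP and 184 and 206 CPM with AMP at 24 h, and at 242 and 238, 311 and 293, and 304 and 304 CPM at 48 h. Its log2 change was −0.38 ± 0.06 and then 0.33 ± 0.06 with ENPP1+ATP, and −0.45 ± 0.06 and then 0.34 ± 0.06 with AMP. Aldoa was at 565 and 562 CPM in vehicle, 335 and 335 CPM with ENPP1+ATP and 357 and 380 CPM with AMP at 24 h. At 48 h the same media gave 496 and 519, 529 and 557, and 596 and 584 CPM. Aldoa fell by 0.75 ± 0.06 and by 0.61 ± 0.06 on the log2 scale at 24 h. At 48 h it was not called with ENPP1+ATP (0.10 ± 0.06) and rose with AMP (0.22 ± 0.06).

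The 3 phosphofructokinase genes, whose products commit sugar to glycolysis, did not move together. Pfkm, the muscle subunit, was at 64.3 and 64.1 CPM in vehicle at 24 h, 53.3 and 53.5 CPM with ENPP1+ATP and 43.8 and 43.2 CPM with AMP, and its log2 changes at 24 and 48 h were −0.27 ± 0.05 and −0.38 ± 0.05 with ENPP1+ATP and −0.56 ± 0.05 and −0.32 ± 0.05 with AMP. Pfkp, the platelet subunit, rose at 24 h (0.21 ± 0.07 with ENPP1+ATP, 0.40 ± 0.07 with AMP) and was not called at 48 h. Pfkl, the liver subunit, was called only with ENPP1+ATP at 48 h (−0.43 ± 0.16, adjusted p = 0.0491). That call was lost with another scaling (RLE factors) and with a replicate block. Tpi1, triosephosphate isomerase, fell at 24 h by 0.21 ± 0.07 with ENPP1+ATP and by 0.17 ± 0.07 with AMP. Aldoc, the aldolase of brain, lay between 0.294 and 1.00 CPM in CFs and was called in no comparison with vehicle.

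Of the 5 enzymes from glyceraldehyde 3-phosphate to pyruvate, 3 fell with ENPP1+ATP at 24 h and 5 with AMP. Gapdh, which oxidizes glyceraldehyde 3-phosphate, was at 1257 and 1263 CPM in vehicle, 1063 and 1023 CPM with ENPP1+ATP and 1040 and 1062 CPM with AMP at 24 h. It fell in all 4 comparisons, by 0.17 to 0.27 on the log2 scale, and in the AMP comparison at 48 h the adjusted p was 0.0247. Pgk1, phosphoglycerate kinase, fell by 0.29 ± 0.07 and 0.34 ± 0.07 with ENPP1+ATP and by 0.39 ± 0.07 with AMP at 24 h. Eno1, enolase, was at 488 and 497 CPM in vehicle at 24 h, 349 and 358 CPM with ENPP1+ATP and 358 and 377 CPM with AMP, and at 48 h at 431 and 450, 431 and 440, and 497 and 468 CPM. It fell at 24 h (−0.48 ± 0.06 and −0.42 ± 0.06) and was not called at 48 h (−0.02 and 0.13). Pkm, pyruvate kinase, was called lower at 24 h only with AMP (−0.15 ± 0.05) and rose at 48 h (0.19 ± 0.05 with ENPP1+ATP, 0.18 ± 0.05 with AMP). Pgam1, phosphoglycerate mutase, was called in ENPP1+ATP at 48 h (−0.21 ± 0.06) and in AMP at 24 h (−0.19 ± 0.06). Gapdh, Pgk1, Eno1, Aldoa, Ldha, Tpi1 and Pgam1 have near-identical pseudogene copies, so reads of these genes could have been split or dropped by the authors' counting and their levels are uncertain.

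**Figure D2:**
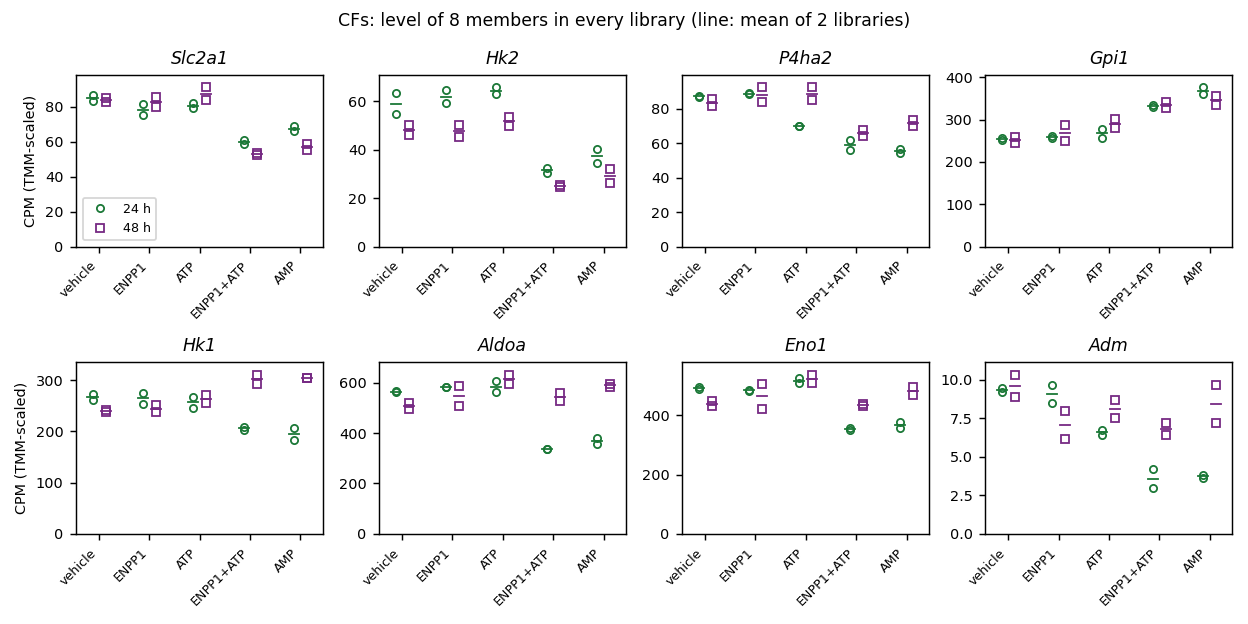
Level of 8 members in each of the 20 CF libraries (CPM with TMM scaling, linear axis from 0; circles 24 h, squares 48 h, lines the mean of 2 libraries) by medium. Slc2a1, Hk2 and P4ha2 are below vehicle and Gpi1 above it with ENPP1+ATP and AMP at both times, whereas Hk1 and Aldoa are below vehicle at 24 h and above it at 48 h.

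Of the genes that set the fate of pyruvate, Ldha, the lactate dehydrogenase subunit that forms lactate, was at 333 and 337 CPM in vehicle at 24 h, 277 and 289 CPM with ENPP1+ATP and 285 and 285 CPM with AMP. Its log2 change was −0.24 ± 0.07 and −0.23 ± 0.07 at 24 h, and at 48 h it rose with AMP (0.27 ± 0.07) and was not called with ENPP1+ATP (0.06 ± 0.07). Pdk1, the kinase that holds pyruvate back from the mitochondrial dehydrogenase, fell with ENPP1+ATP at 24 and 48 h (−0.61 ± 0.21 and −0.63 ± 0.21) and with AMP at 24 h (−0.58 ± 0.20). Slc16a3, the lactate exporter MCT4, ranged from 0 to 2.76 CPM over the 20 libraries, with 0 and 0.968 CPM in the AMP pair at 24 h, and its log2 value of −1.73 ± 1.03 with ENPP1+ATP at 24 h was not called. The 2 bifunctional enzymes that set fructose 2,6-bisphosphate, the activator of phosphofructokinase, were both lower. Pfkfb4 was at 18.9 and 19.1 CPM in vehicle at 48 h, 10.7 and 9.88 CPM with ENPP1+ATP and 12.7 and 11.4 CPM with AMP, and fell in all 4 comparisons (−0.39 ± 0.10 and −0.88 ± 0.11 with ENPP1+ATP, −0.52 ± 0.10 and −0.66 ± 0.10 with AMP). Pfkfb3 fell at 24 h (−0.55 ± 0.10 and −0.46 ± 0.10) and was not called at 48 h.

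The hypoxia-response members outside glycolysis split. Ndrg1, a stress-response gene, was at 122 and 121 CPM in vehicle at 24 h, 80.8 and 80.2 CPM with ENPP1+ATP and 90.3 and 83.3 CPM with AMP, and its 4 log2 changes lay between −0.63 and −0.49. Adm, which encodes the vasodilator peptide adrenomedullin, was at 9.17 and 9.44 CPM in vehicle at 24 h, 2.96 and 4.21 CPM with ENPP1+ATP and 3.84 and 3.65 CPM with AMP. At 48 h it was at 10.3 and 8.86, 7.21 and 6.39, and 9.66 and 7.18 CPM. Its groups were apart at 24 h, with log2 changes of −1.37 ± 0.17 and −1.31 ± 0.17, and at 48 h only ENPP1+ATP was called (−0.50 ± 0.16). Kdm3a, a histone H3 lysine 9 demethylase, rose in all 4 comparisons (0.35 ± 0.07 and 0.30 ± 0.07 with ENPP1+ATP, 0.36 ± 0.07 and 0.40 ± 0.07 with AMP). Bhlhe40, a transcriptional repressor, fell in 3 of the 4 (−0.20 ± 0.06 and −0.30 ± 0.06 with ENPP1+ATP, −0.26 ± 0.06 with AMP at 48 h).

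Oxygen sensing and mitochondrial members had no common direction. Egln1, the main prolyl hydroxylase of the hypoxia-inducible factors, was at 58.7 and 59.5 CPM in vehicle at 24 h, 51.5 and 54.0 CPM with ENPP1+ATP and 44.6 and 46.5 CPM with AMP, and at 48 h at 59.2 and 63.5, 68.6 and 73.1, and 74.1 and 77.9 CPM. It fell at 24 h (−0.16 ± 0.06 and −0.37 ± 0.06) and rose at 48 h (0.21 ± 0.06 and 0.31 ± 0.06). Egln3, a hydroxylase that is itself induced by hypoxia, was at 1.32 and 1.37 CPM in vehicle at 24 h and rose with ENPP1+ATP (2.79 and 2.65 CPM, 1.02 ± 0.25) and AMP (2.68 and 3.20 CPM, 1.14 ± 0.25). Higd1a, a small protein of the inner mitochondrial membrane, fell at 48 h (−0.52 ± 0.09 with ENPP1+ATP, −0.29 ± 0.09 with AMP), and Bnip3, a mitophagy receptor, fell only with ENPP1+ATP at 48 h (−0.36 ± 0.14, adjusted p = 0.0468). Ankrd37, a low-abundance target of the hypoxia-inducible factors, was at 1.76 and 0.996 CPM with ENPP1+ATP at 24 h against 0.596 and 0.480 CPM in vehicle (1.33 ± 0.37), and at 0.459 and 0.298 against 0.718 and 0.832 CPM at 48 h (−1.02 ± 0.41, adjusted p = 0.0459).

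P4ha1 and P4ha2 encode the catalytic subunits of the prolyl 4-hydroxylases that stabilize the collagen triple helix. P4ha2 was at 86.8 and 87.4 CPM in vehicle at 24 h, 56.1 and 61.9 CPM with ENPP1+ATP and 54.2 and 56.8 CPM with AMP. At 48 h it was at 81.3 and 85.8, 64.1 and 67.7, and 73.4 and 69.8 CPM. All libraries of both media lay below vehicle, with log2 changes of −0.56 ± 0.06 and −0.34 ± 0.06 for ENPP1+ATP and −0.65 ± 0.06 and −0.22 ± 0.06 for AMP. P4ha1 fell by 0.37 ± 0.06 and 0.46 ± 0.06 with ENPP1+ATP and by 0.39 ± 0.06 and 0.42 ± 0.06 with AMP.

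With 2 libraries per group, some of these calls rest on a single library. With ENPP1+ATP at 24 h, 17 of 25 calls were kept whichever of the 4 libraries was left out, and Egln1, Tpi1, Slc2a3, Ldha, Ankrd37, Pdk1, Pfkp and Bhlhe40 lost theirs (adjusted p up to 0.235). Ankrd37 lost its call without ENPP1+ATP replicate 1, where its log2 change was 0.87. At 48 h, 14 of 22 calls were kept, and Ankrd37, Pfkl, Bnip3, Egln1, Gapdh, Pgam1, Pdk1 and Adm lost theirs (adjusted p up to 0.323). With AMP at 24 h, 19 of 25 calls were kept, and Tpi1, Pgam1, Pkm, Ldha, Pdk1 and Slc2a3 lost theirs (adjusted p up to 0.19), and at 48 h, 12 of 17 were kept, and Pkm, Gapdh, Higd1a, P4ha2 and Ldha lost theirs (adjusted p up to 0.279). In each of these comparisons every one of the 4 libraries took at least 1 call away, and no direction changed.

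The question of which component of the medium matters is addressed by ATP, ENPP1 and the direct comparisons. With ATP alone at 24 h, Pfkm (−0.25 ± 0.05), Ndrg1 (−0.23 ± 0.05), P4ha1 (−0.23 ± 0.06), P4ha2 (−0.31 ± 0.06) and Adm (−0.50 ± 0.16) fell and Pfkp rose (0.27 ± 0.07), which is 18.8% of the members beside 11.1% of all genes (6.32% fell and 4.77% rose). At 48 h no member fell and 8 rose, Gpi1, Aldoa, Pgk1, Eno1, Pkm, Ldha, Bnip3 and Egln1, by 0.21 to 0.46 on the log2 scale (25%, beside 7.83% of all genes, where 5.35% rose and 2.48% fell). Ldha is the example, at 466 and 409 CPM with ATP against 316 and 336 CPM in vehicle at 48 h (0.42 ± 0.07). Only Pfkm and P4ha2 at 24 h and Ldha at 48 h kept their calls whichever library was left out. At 48 h the number called was 1 without vehicle replicate 1 and 2 without ATP replicate 1. At 24 h it was 2 without ATP replicate 1 and 3 without vehicle replicate 1. Beside this, ATP replicate 1 and ENPP1 replicate 2 at 48 h were above their partners in Pfkl (133 and 106 CPM with ATP, 90.9 and 136 CPM with ENPP1) and in Bnip3 (35.1 and 29.3, and 22.6 and 33.6 CPM).

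ENPP1 alone gave 0 calls by edgeR among the members and among all genes at either time, with 0% of all genes called. At an unadjusted p below 0.05 there was 1 member at 24 h (Slc2a1, −0.12) beside 249 genes in all, and 2 at 48 h (Pgk1, 0.15, and Adm, −0.45) beside 743. DESeq2 also called 0 members. Against ATP medium instead of vehicle, ENPP1+ATP lowered 17 members and raised 3 at 24 h (43.9% of all genes called, 22.1% lower and 21.8% higher) and lowered 19 and raised 3 at 48 h (39.5% of all genes, 21.3% lower and 18.2% higher). The log2 changes against ATP at 24 and 48 h were −1.03 ± 0.09 and −1.04 ± 0.10 for Hk2, −0.43 ± 0.06 and −0.73 ± 0.06 for Slc2a1, and 0.31 ± 0.06 and 0.21 ± 0.06 for Gpi1. Pfkfb4 fell by 0.77 ± 0.11 at 48 h. The call of Gpi1 at 48 h was lost without ATP replicate 2 or ENPP1+ATP replicate 2 (adjusted p up to 0.131), and 12 of 20 and 17 of 22 calls of these comparisons were kept whichever library was left out. AMP against ATP lowered 18 and raised 2 members at 24 h (47.5% of all genes, 24.6% lower and 22.9% higher) and lowered 17 and raised 3 at 48 h (37.2% of all genes, 19.2% lower and 18% higher), with Hk2 at −0.78 ± 0.09 and −0.82 ± 0.09. These comparisons share their ATP libraries with each other. For AMP against ATP 15 of 20 calls at 24 h and 12 of 20 at 48 h were kept, and the count at 48 h was 13 without ATP replicate 1.

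Few members differed between AMP and ENPP1+ATP media beyond the spread of their libraries. At 24 h Pfkm was the 1 member called, lower with AMP (−0.30 ± 0.05, adjusted p = 0.0016), where 6.25% of all genes were called, 2.6% higher and 3.65% lower with AMP. DESeq2, the fit with a replicate block and the fit without the low-count filter each called 3 (1 higher, 2 lower). At 48 h edgeR called 0 of 32 members, where 0.162% of all genes were called (0.0895% higher, 0.0727% lower), and 6 members had an unadjusted p below 0.05, Hk2, Aldoa, Pgk1, Eno1, Ldha and Higd1a, all higher with AMP by 0.12 to 0.24 (18.8% of the members, beside 13.8% of all genes). Without the low-count filter 3 members were called at 48 h, all higher with AMP. A count of 0 does not show that the 2 media act alike on these genes.

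The effect of the media on several glycolytic enzymes differed between 24 and 48 h. In vehicle edgeR called 0 members between 48 and 24 h (4.88% of all genes, 1.68% rising and 3.2% falling), with 7 at an unadjusted p below 0.05 (21.9% of the members, beside 2859 of all 17879 genes, or 16%), and DESeq2 called 3. A fit of only these 2 groups called 7 (1 higher, 6 lower), the fit without the low-count filter 3 and the fit with a replicate block 2. With ENPP1+ATP 8 members rose and 8 fell from 24 to 48 h (40.7% of all genes, 19.5% rising and 21.2% falling), and with AMP 10 rose and 6 fell (43.1% of all genes, 22.3% rising and 20.8% falling). Of these calls, 10 of 16 with ENPP1+ATP and 12 of 16 with AMP were kept whichever library was left out. The test of the difference itself, the effect at 48 h minus the effect at 24 h, called 11 members with ENPP1+ATP (34.4%, 8 higher, 3 lower, beside 30% of all genes, 15.1% and 14.9%) and 12 with AMP (37.5%, 10 higher, 2 lower, beside 31.7% of all genes, 17.3% and 14.4%). The shares called are near those of all genes. The enzymes Hk1, Aldoa, Eno1, Pkm and Ldha, the sensor Egln1, and P4ha2 and Adm had higher effects at 48 h in both media. For Hk1 the difference was 0.71 with ENPP1+ATP and 0.79 with AMP, for Aldoa 0.85 and 0.83, for Eno1 0.46 and 0.56, and for Egln1 0.37 and 0.68. Without ENPP1+ATP 24 h replicate 1 the count for ENPP1+ATP was 7. The differences of Ldha, P4ha2, Higd1a and Adm with ENPP1+ATP and of Pfkm, Pgk1 and Slc2a1 with AMP lost their calls when 1 of the 8 libraries they use was left out (adjusted p up to 0.266 and 0.151).

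Other genes of the same pathways moved in both directions. They were taken from lists written from general knowledge, with earlier results of these data known. Of 30 further glycolysis and pyruvate genes tested in CFs, 10 rose and 7 fell with ENPP1+ATP at 24 h and 6 rose and 14 fell at 48 h, and with AMP 11 rose and 7 fell and then 7 rose and 11 fell. The share called was 56.7%, 66.7%, 60% and 60%, beside 49.1%, 45.2%, 52.8% and 44% of all genes. The transporter Slc2a6 (−1.56 ± 0.11 and −2.48 ± 0.12), the muscle enolase Eno3 (−1.34 ± 0.13 and −0.84 ± 0.12) and Slc2a10 (−0.81 ± 0.12 and −1.08 ± 0.13) fell with ENPP1+ATP at 24 and 48 h, while Slc16a1, the lactate transporter MCT1, rose at 24 h (0.47 ± 0.07) and Pdk4, a pyruvate dehydrogenase kinase induced by fatty acids, at 48 h (1.79 ± 0.08). Of 44 further hypoxia-response genes, 10 rose and 17 fell at 24 h and 9 rose and 16 fell at 48 h with ENPP1+ATP, and 10 rose and 20 fell and then 10 rose and 15 fell with AMP (61.4%, 56.8%, 68.2% and 56.8% called, beside the same shares of all genes). Angptl4, an inhibitor of lipoprotein lipase, rose most (3.12 ± 0.16 and 6.94 ± 0.14 with ENPP1+ATP), followed by Car12, a membrane carbonic anhydrase (1.72 ± 0.14 and 2.83 ± 0.14). Lox, the collagen cross-linking oxidase (−1.61 ± 0.07 and −1.73 ± 0.07), Vldlr (−1.53 ± 0.08 and −1.48 ± 0.08) and Stc2 (−1.44 ± 0.14 and −1.42 ± 0.14) fell.

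Markers of cell type and cell division differed between the same media. The summed level of 11 fibroblast markers was 7756 to 8295 CPM in vehicle at 24 h, 3951 to 4109 CPM with ENPP1+ATP, 3153 to 3384 CPM with AMP, 5727 to 6032 CPM with ATP and 7584 to 7957 CPM with ENPP1. At 48 h it was 7908 to 8467 CPM in vehicle, 4204 to 4286 CPM with ENPP1+ATP and 4281 to 4593 CPM with AMP. The summed level of 10 markers of dividing cells was 1720 to 1744 CPM in vehicle at 24 h, 3867 to 4175 CPM with ENPP1+ATP and 3794 to 4192 CPM with AMP, and at 48 h 1760 to 1811, 2379 to 2468 and 2357 to 2358 CPM. All 10 of these markers rose with ENPP1+ATP at 24 h. Cdkn1a, a p53 target that stops the cell cycle, rose by 1.97 ± 0.14 and 2.30 ± 0.14 with ENPP1+ATP. Of the markers of other cell types, the 9 of smooth muscle or pericytes summed to 129.5 to 135.4 CPM in vehicle at 48 h, 349 to 357 CPM with ENPP1+ATP and 389 to 416 CPM with AMP, and the 10 of macrophages to 23.9 to 24.1, 82.5 to 86.3 and 82.2 to 96.7 CPM. Of these lists 5 and 4 genes were tested, of which 3 and 3 rose and 1 and 0 fell with ENPP1+ATP at 48 h. The part of other cell types, cell identity and cell division in the changes of the members was not tested.

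In NRVMs the ENPP1+ATP, AMP and ATP groups had members called in both directions, and of the called members P4ha2, a collagen hydroxylase, fell most in each. With ENPP1+ATP 11 of the 30 tested rose and 10 fell (70%, beside 56% of all genes, 28.6% rising and 27.4% falling), with AMP 12 rose and 9 fell (70%, beside 57.2%, 29.2% rising and 28% falling), and with ATP 8 rose and 8 fell (53.3%, beside 59.9%, 30.2% rising and 29.7% falling). The median log2 change of the members was −0.02, 0.04 and −0.03. The 3 comparisons share their vehicle libraries.

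P4ha2 was at 132, 135 and 128 CPM in the 3 vehicle libraries, 59.1, 58.6 and 57.0 CPM with ENPP1+ATP, 66.5, 67.0 and 62.6 CPM with AMP, and 62.3, 70.3 and 65.2 CPM with ATP. Its log2 change was −1.18 ± 0.05, −1.01 ± 0.05 and −0.997 ± 0.05, with no overlap with vehicle. P4ha1 was at 192, 189 and 186 CPM in vehicle, 110, 112 and 110 CPM with ENPP1+ATP, 130, 132 and 131 CPM with AMP and 159, 171 and 174 CPM with ATP (−0.77 ± 0.04, −0.53 ± 0.04 and −0.17 ± 0.04). Fibroblast markers moved beside them. Their summed level was 24640 to 26190 CPM in vehicle, 8860 to 9311 CPM with ENPP1+ATP, 11570 to 12680 CPM with AMP and 11210 to 12860 CPM with ATP, and the part of fibroblasts in the cultures in these results was not tested. The summed cardiomyocyte markers were at 43130 to 45080 CPM in vehicle, 37360 to 39320 CPM with ENPP1+ATP, 42450 to 44560 CPM with AMP and 25220 to 27190 CPM with ATP.

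**Figure D3:**
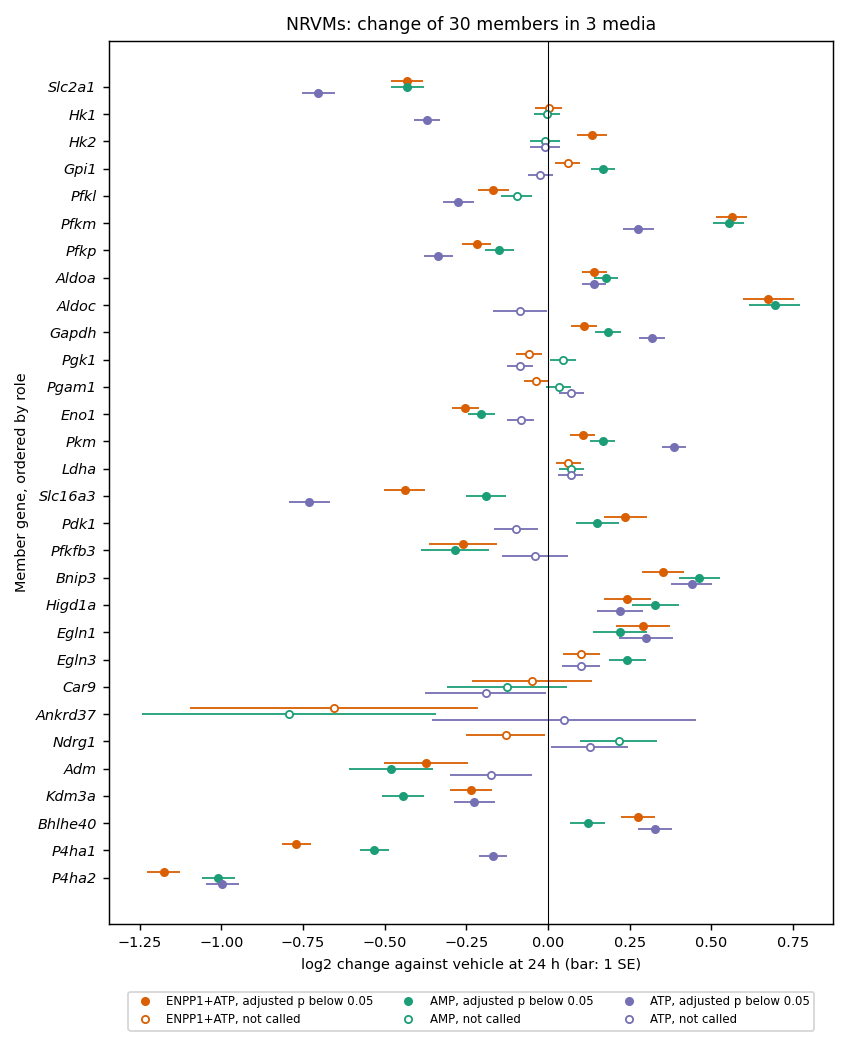
Log2 change against vehicle at 24 h (x axis, bar 1 SE) of 30 members (y axis, ordered by role) in NRVMs with ENPP1+ATP, AMP and ATP, with filled points where the adjusted p was below 0.05. P4ha2 sits near −1 in all 3 groups, and Pfkm and Aldoc are to the right with ENPP1+ATP and AMP.

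Among the glycolytic genes of NRVMs, Slc2a1 fell in the 3 groups. It was at 133, 137 and 140 CPM in vehicle, 102, 109 and 92.4 CPM with ENPP1+ATP, 99.2, 103 and 102 CPM with AMP and 88.2, 82.3 and 81.0 CPM with ATP (−0.43 ± 0.05, −0.43 ± 0.05 and −0.70 ± 0.05). Pfkm, the muscle phosphofructokinase, rose. It was at 232, 219 and 239 CPM in vehicle, 348, 335 and 336 CPM with ENPP1+ATP, 351, 357 and 305 CPM with AMP and 294, 275 and 267 CPM with ATP (0.56 ± 0.05, 0.55 ± 0.05 and 0.28 ± 0.05). Aldoc rose with ENPP1+ATP and AMP and was not called with ATP. It was at 29.6, 26.6 and 29.5 CPM in vehicle, 46.3, 45.9 and 44.5 CPM with ENPP1+ATP, 44.2, 43.9 and 50.5 CPM with AMP and 29.7, 23.7 and 27.5 CPM with ATP (0.67 ± 0.08, 0.69 ± 0.08 and −0.09 ± 0.08). Hk1 was lower only with ATP (−0.37 ± 0.04), and its values with ENPP1+ATP and AMP were 0.00 ± 0.04 and −0.00 ± 0.04. Aldoa (0.14, 0.18 and 0.14), Gapdh (0.11, 0.18 and 0.32) and Pkm (0.11, 0.17 and 0.39) rose by small amounts in the 3 groups, and Pfkp fell (−0.22, −0.15 and −0.34). Eno1 fell with ENPP1+ATP (−0.25 ± 0.04) and AMP (−0.20 ± 0.04) and was not called with ATP (−0.08 ± 0.04). Pgk1, Pgam1 and Ldha were called in none.

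The lactate exporter Slc16a3 fell in NRVMs, from 47.2, 48.9 and 51.0 CPM in vehicle to 38.0, 34.8 and 35.7 CPM with ENPP1+ATP, 43.7, 43.9 and 41.3 CPM with AMP and 30.5, 28.2 and 29.9 CPM with ATP (−0.44 ± 0.06, −0.19 ± 0.06 and −0.73 ± 0.06). The mitophagy receptor Bnip3 rose from 30.7, 31.6 and 31.5 CPM to 39.9, 39.5 and 40.2 CPM, 42.5, 44.7 and 41.9 CPM, and 42.4, 42.0 and 42.7 CPM (0.35 ± 0.06, 0.46 ± 0.06 and 0.44 ± 0.06). Higd1a (0.24, 0.33 and 0.22), Egln1 (0.29, 0.22 and 0.30) and Bhlhe40 (0.27, 0.12 and 0.33) rose in the 3 groups, and the demethylase Kdm3a fell (−0.24, −0.44 and −0.23). Adm fell with ENPP1+ATP (−0.37 ± 0.13) and AMP (−0.48 ± 0.13). Car9, Ankrd37 and Ndrg1 were called in none. Leaving out 1 library cost Pfkfb3, Gapdh, Hk2 and Adm their calls with ENPP1+ATP (17 of 21 kept), Pdk1, Bhlhe40, Pfkfb3, Egln1 and Pfkp theirs with AMP (16 of 21 kept) and Higd1a its call with ATP (15 of 16 kept), with adjusted p up to 0.155, 0.33 and 0.0536. Every library of the first 2 comparisons took at least 1 call away, and in the third it was ATP replicate 3.

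ENPP1 alone gave 0 calls by edgeR and by DESeq2 in NRVMs (0% of all genes), with 3 members at an unadjusted p below 0.05, Pfkfb3, Car9 and P4ha2, beside 693 genes in all. Compared with ATP, ENPP1+ATP raised 8 members and lowered 6 (27.5% of all genes called, 14.1% higher and 13.5% lower), among them Aldoc (0.76 ± 0.08), Hk1 (0.37 ± 0.04) and P4ha1 (−0.60 ± 0.04), and AMP raised 10 and lowered 6 (33.1% of all genes, 17% higher and 16.1% lower), among them Aldoc (0.78 ± 0.08) and Slc16a3 (0.54 ± 0.06). Of these calls, 10 of 14 with ENPP1+ATP and 14 of 16 with AMP were kept whichever library was left out. Between AMP and ENPP1+ATP 5 members were called (9.66% of all genes, 5.81% higher and 3.85% lower), with Slc16a3 (0.25 ± 0.06), P4ha1 (0.24 ± 0.04) and P4ha2 (0.17 ± 0.05) higher and Hk2 (−0.14 ± 0.05) and Kdm3a (−0.21 ± 0.07) lower with AMP. Of these, Hk2, Kdm3a and P4ha2 lost their calls on leaving out 1 library (adjusted p up to 0.268), and each of the 6 libraries took at least 1 away. The count was 2 without ENPP1+ATP replicate 1 and 3 without ENPP1+ATP replicate 2 or AMP replicate 2. Of 30 further glycolysis and pyruvate genes, 13 rose and 4 fell with ENPP1+ATP, 16 rose and 2 fell with AMP and 11 rose and 8 fell with ATP, and of 42 further hypoxia-response genes 15 rose and 13 fell, 13 rose and 12 fell, and 15 rose and 11 fell. The shares called were 56.7%, 60% and 63.3% in the first list and 66.7%, 59.5% and 61.9% in the second, beside 56%, 57.2% and 59.9% of all genes. Ldhd (1.17 ± 0.09), Galm (1.07 ± 0.08) and the oxidase Ero1a (0.94 ± 0.06) were among the rises with ENPP1+ATP and Stc2 (−1.70 ± 0.12), Lox (−1.35 ± 0.11) and Slc2a10 (−1.16 ± 0.15) among the falls.

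In nonmyocytes of the injured heart, most glycolytic members were lower in the ENPP1CKO library than in the control library, in fibroblast-like and in macrophage-like cells. With 1 library per genotype no test is possible, and the values compare these libraries. After removal of poor barcodes and of predicted doublets, 7255 ENPP1CKO and 5240 control cells remained and formed 13 clusters, and 68 barcodes were shared between the libraries. Clustering left out the members, the further glycolysis and hypoxia genes and Enpp1. Clusters were named from marker genes, and not every cluster could be given a name. The level of Enpp1 in fibroblast-like cells was 28.6 CPM for ENPP1CKO against 129 CPM for control. Intervals are exact 95% limits, and they cover counting error only.

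Fibroblast-like cells numbered 3726 in ENPP1CKO and 1873 in control, with medians of 4056.5 and 5139 counts per cell. Of 31 members with at least 20 counts in both libraries together, 25 were lower and 6 higher in ENPP1CKO, where 50.5% of all genes were higher. The interval of the log2 ratio lay below 0 for 20 members and above 0 for 1, where it lay below 0 for 17.5% and above 0 for 16.7% of all genes. The median log2 ratio was −0.33, against 0.00 over all genes.

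**Figure D4:**
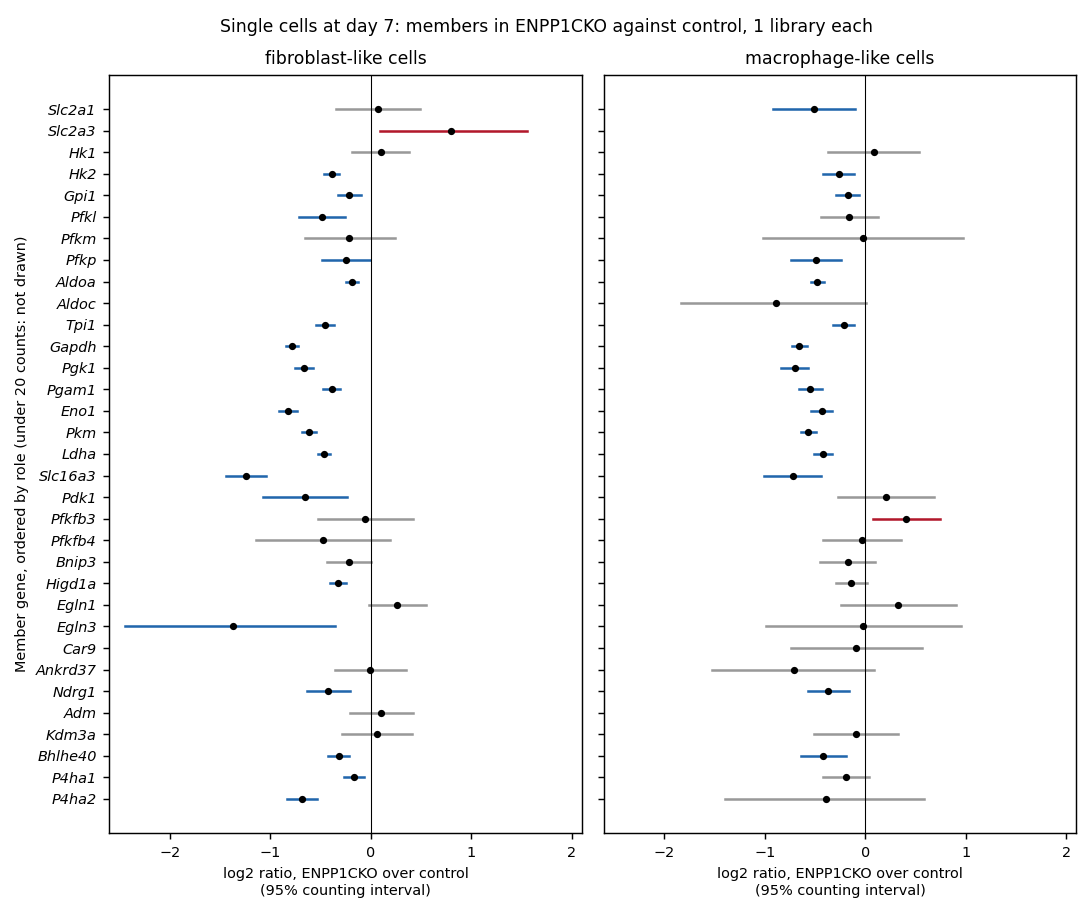
Log2 ratio of ENPP1CKO over control (x axis, bars the 95% counting interval) for each member with at least 20 counts (y axis, ordered by role) in fibroblast-like and macrophage-like cells, with blue bars below 0, red bars above 0 and grey bars that hold 0. The enzymes from Tpi1 to Ldha are blue in both panels, and Slc2a3 in fibroblast-like and Pfkfb3 in macrophage-like cells are red.

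In the fibroblast-like class as a whole, the lower part of glycolysis differed by more than the upper part, and this was not so in every cluster of the class. It was not particular to this class. The summed lower and upper parts had log2 ratios of −0.58 and −0.35 in macrophage-like and −0.59 and −0.14 in endothelial-like cells. They were −0.605 and −0.30 in T or NK cell-like, −0.84 and −0.52 in neutrophil-like, and −0.28 and 0.18 in smooth muscle or pericyte-like cells. In fibroblast-like cells Gapdh reached 268.5 CPM for ENPP1CKO and 461.8 CPM for control (log2 ratio −0.78, interval −0.84 to −0.72), Eno1 at 117 and 207 CPM (−0.82), Pgk1 at 112 and 178 CPM (−0.66), Pkm at 203 and 312.5 CPM (−0.62) and Pgam1 at 145 and 189.9 CPM (−0.39). The 5 lower enzymes summed to 846 and 1349 CPM (−0.67) and the 9 upper members to 795 and 974.9 CPM (−0.29). In the upper part Hk2 was at 193 and 252 CPM (−0.39), Tpi1 at 138 and 189.6 CPM (−0.45) and Aldoa at 313 and 356 CPM (−0.19), while Hk1 (0.10, interval −0.18 to 0.38) and Slc2a1 (0.07, interval −0.35 to 0.49) did not differ beyond counting error. The lactate exporter Slc16a3 was at 20.2 and 47.8 CPM (−1.24, interval −1.44 to −1.04) and Ldha at 342 and 472 CPM (−0.47). Among the hypoxia-response members Higd1a (189 and 237 CPM, −0.33), Bhlhe40 (101.5 and 127 CPM, −0.32) and Ndrg1 (24.5 and 32.8 CPM, −0.42) were lower, and Adm, Kdm3a, Ankrd37 and Egln1 had intervals that hold 0. By cluster, Adm was higher in the second (0.66, interval 0.21 to 1.12) and Ankrd37 lower in the third (−0.91, interval −1.65 to −0.09). P4ha2 was at 44.9 and 72.0 CPM (−0.68, interval −0.83 to −0.54). P4ha1 was at 114 and 128 CPM (−0.17), and when each cell was thinned to 1000 counts its ratio was 0.03. Slc2a3 was the member whose interval lay above 0, with 63 and 23 counts (0.80, interval 0.09 to 1.55). By cluster it had 28 and 1 counts in the first (3.49, interval 0.90 to 8.85), and in the other 2 its intervals held 0 (0.33 and −0.24).

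The 3 fibroblast-like clusters held 1414, 1100 and 1212 ENPP1CKO and 506, 1203 and 164 control cells. Within them 23 of 29, 24 of 30 and 22 of 30 members were lower in ENPP1CKO, where 48.9%, 54.1% and 44.6% of all genes were lower, and the interval lay below 0 for 12, 18 and 8 (8.94%, 15.5% and 6.36% of all genes) and above 0 for 1, 1 and 0 (8.02%, 11% and 6.96%). The 5 lower enzymes had summed log2 ratios of −0.40, −0.76 and −0.32 and the 9 upper members of −0.39, −0.42 and 0.04, so in the first cluster, the largest of ENPP1CKO, the 2 sums differed from control by about the same amount. Gapdh was at −0.55, −0.83 and −0.35, Eno1 at −0.48, −0.91 and −0.33 and Hk2 at −0.67, −0.58 and 0.10, beside the values of −0.78, −0.82 and −0.39 over the class, in which the clusters have different shares in the 2 libraries. Markers of dividing cells of fibroblast-like cells summed to 142 CPM for ENPP1CKO and 240 CPM for control, with all 10 lower, and macrophage markers to 332 and 584 CPM, and their part in the result was not tested. Transcripts of C1q, which fibroblasts should lack, were in fibroblast-like cells at 0.883% and 1.48% of their macrophage-like level. Of 26 further glycolysis and pyruvate genes 7 were higher and 19 lower, and of 45 further hypoxia-response genes 22 were higher and 23 lower.

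Macrophage-like cells numbered 2005 and 1681, with medians of 3308 and 3818 counts. A further cluster with macrophage markers, but none among its 10 leading genes, could not be named and is not in this class, with 57 ENPP1CKO cells (0.786% of the library) and 819 control cells (15.6%). Of 31 members, 27 were lower and 4 higher in ENPP1CKO, where 42.5% of all genes were higher, and the interval lay below 0 for 15 (13.9% of all genes) and above 0 for 1 (9.28% of all genes). With TMM scaling of the summed libraries 24 were lower and 7 higher. Pgk1 was at 107 and 174 CPM (−0.70, interval −0.84 to −0.57), Gapdh at 348 and 548 CPM (−0.66), Pkm at 323 and 478 CPM (−0.57), Aldoa at 475 and 662 CPM (−0.48) and Slc16a3 at 24.7 and 40.8 CPM (−0.72). Slc2a1 was lower here, at 12.8 and 18.2 CPM (−0.51, interval −0.91 to −0.10). Pfkfb3 was higher, at 25.6 and 19.3 CPM (0.41, interval 0.07 to 0.74), with 0.61 (interval 0.21 to 1.02) in 1 cluster of the class and −0.07 in the other, where the interval held 0. In the 2 clusters of this class 26 of 31 and 25 of 28 members were lower, where 55.3% and 58.3% of all genes were lower. The summed markers of dividing cells were 325 and 323 CPM in this class.

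Endothelial-like cells, 945 and 188 with medians of 1483 and 2580 counts, gave no common direction. Of 27 members 16 were higher and 11 lower, where 45.2% of all genes were higher. Hk1 was at 23.3 and 57.6 CPM (−1.31, interval −2.02 to −0.59), Pgk1 at 152 and 279 CPM (−0.88), Pkm at 421 and 684 CPM (−0.70) and Gapdh at 467 and 697 CPM (−0.58). Ankrd37 was higher, at 116 and 42.8 CPM (1.44, interval 0.82 to 2.13), as was Bnip3 at 56.2 and 26.0 CPM (1.11, interval 0.30 to 2.03). Endothelial markers in this class summed to 26210 CPM for ENPP1CKO and 14150 CPM for control, with 5 higher and 5 lower. Smooth muscle or pericyte markers summed to 266 and 40.9 CPM. The part of cell identity or mix in these values was not tested. When cells were thinned to 1000 counts, 8 members were higher and 12 lower, with 241 ENPP1CKO and 16 control cells too shallow to enter.

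The summed level of the 15 enzymes from hexokinase to lactate dehydrogenase was lower in ENPP1CKO in the 7 cell groups examined, by amounts that varied. It was 1983 and 2797 CPM in fibroblast-like, 2399 and 3328 CPM in macrophage-like, 2931 and 3690 CPM in endothelial-like, 2431 and 3462 CPM in T or NK cell-like and 3541 and 5775 CPM in neutrophil-like cells. It was 4011 and 4111 CPM in smooth muscle or pericyte-like cells, where the interval of the log2 ratio held 0 (−0.14 to 0.07). This class also held cardiomyocyte markers, at 6116 CPM for ENPP1CKO and 3413 CPM for control, and their part was not tested. The smaller groups gave 22 members with 20 counts in smooth muscle or pericyte-like cells (10 higher, beside 49.3% of all genes), 14 in T or NK cell-like cells (3 higher, beside 42.7%) and 16 in neutrophil-like cells (0 higher, beside 46.8%).

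**Figure D5:**
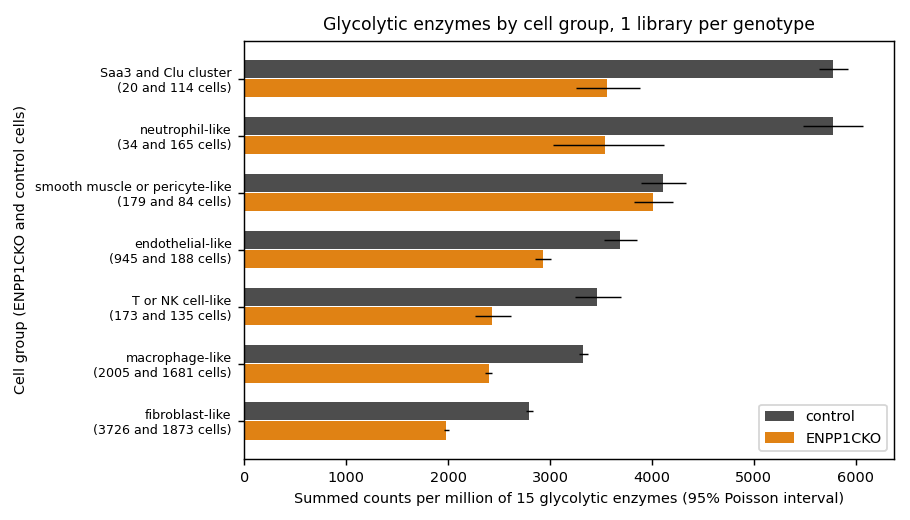
Summed level of 15 glycolytic enzymes (x axis, CPM, bars from 0 with the 95% Poisson interval) in 7 cell groups (y axis, with cell numbers) of the control (grey) and ENPP1CKO (orange) library. The intervals are apart in fibroblast-like and macrophage-like cells and overlap in smooth muscle or pericyte-like cells.

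An unnamed cluster led by Saa3 and Clu, with 20 and 114 cells, had 3563 and 5781 CPM of the 15 enzymes, and 17 of 22 members were lower in ENPP1CKO (52.9% of all genes higher).

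Among the named cell classes of the control library, neutrophil-like cells came first for several members, and unnamed clusters were not ranked. Pkm was at 1581 CPM there and 684 CPM in endothelial-like cells, the next class, Slc16a3 at 467.7 CPM and 47.8 CPM in fibroblast-like cells, Eno1 at 618 CPM and 294 CPM in T or NK cell-like cells, and Pgk1 at 437 CPM and 279 CPM in endothelial-like cells. In these 4 genes the interval of the first class was apart from the next. Hk2 was highest in fibroblast-like cells (252 CPM, next 110 CPM in macrophage-like cells), P4ha2 likewise (72.0 CPM, next 39.2 CPM in smooth muscle or pericyte-like cells), Ndrg1 in endothelial-like cells (160 CPM, next 67.0 CPM in macrophage-like cells) and Bhlhe40 in T or NK cell-like cells (260.3 CPM, next 127 CPM in fibroblast-like cells). For Hk2 the 3 fibroblast-like clusters were at 490, 192 and 125 CPM, and the interval of the last (101.5 to 152) overlapped that of a macrophage-like cluster at 119 CPM (106 to 133). For Slc2a1, Gapdh, Aldoa and Ldha the intervals of the first 2 classes overlapped. In the ENPP1CKO library, with 34 neutrophil-like cells, Hk2 was again apart in fibroblast-like and Slc16a3 in neutrophil-like cells. For Pkm, Eno1, Pgk1, P4ha2, Ndrg1 and Bhlhe40 the first class of that library was not apart from the others. Car9, a carbonic anhydrase of the cell surface, had 43 counts in macrophage-like and 2 in fibroblast-like cells of the control library.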

How the data were processed

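For CFs and NRVMs the authors deposited raw read counts per gene, and for the nonmyocytes 10x matrices of UMI counts per cell. The submitters' processing notes name STAR 2.5.3a, Cell Ranger and the builds mm10 and rn6. The counting program is not given in the sources used here, and reads of genes with near-identical copies could be split by it. The members and lists were chosen with earlier results of these data known. All 33 members may be named. From the lists of 35 other glycolysis and pyruvate genes and 46 other hypoxia-response genes, up to 3 genes that rose and 3 that fell most were named, if their mean log2 CPM was 2 or more.

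Counts of each experiment were fitted with edgeR 4.0.16 in R 4.3.3 (filterByExpr, TMM factors, 1 mean per medium and time, quasi-likelihood test), with Benjamini-Hochberg adjustment over all 17879 genes tested in CFs and 13461 in NRVMs. The standard error is the log2 change over the square root of F. DESeq2 1.42.0, other scaling, no filter, fewer groups, a replicate block and leaving out each library were the alternatives. The code of the fit was run on simulated counts, which lends no support to the calls printed here. Printed CPM use TMM-scaled library sizes.

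Barcodes under 200 genes or over 20% mitochondrial counts were dropped, and doublets were removed as predicted by scrublet in scanpy 1.11.5 (2.02% of ENPP1CKO and 1.29% of control barcodes). Clusters came from 2000 variable genes, 30 principal components and Leiden resolution 0.5. A class name needed 3 markers. Of the unnamed clusters, the genes of 2 that were counted in no class are not reported here. Counts were summed per class and library and scaled to CPM. Columns of per-sample values not used numbered 0.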

Additional observations from a re-analysis of the deposited data

Results flagged for a closer look

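In CFs the effect of ENPP1+ATP differed between 48 and 24 h, by edgeR's interaction test, for 11 members (34.4%, beside 30% of all genes). Without ENPP1+ATP 24 h replicate 1 it differed for 7. The difference of the log2 changes was 0.71 for Hk1, 0.85 for Aldoa, 0.46 for Eno1, 0.32 for Pkm, 0.30 for Ldha, 0.37 for Egln1, 0.22 for P4ha2 and 0.87 for Adm, and −0.49 for Pfkfb4, −2.35 for Ankrd37 and −0.35 for Higd1a. For AMP it differed for 12 members (37.5%, beside 31.7% of all genes), by 0.79 for Hk1, 0.83 for Aldoa, 0.56 for Eno1, 0.33 for Pkm, 0.50 for Ldha, 0.68 for Egln1, 0.43 for P4ha2, 1.12 for Adm, 0.24 for Pfkm and 0.28 for Pgk1, and by −0.23 for Slc2a1 and −0.46 for Pfkp. Leaving out 1 library cost Ldha, P4ha2, Higd1a and Adm their calls with ENPP1+ATP and Pfkm, Pgk1 and Slc2a1 theirs with AMP. The shares called in both media are near those of all genes, so these counts are not a trait of the members.

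At 24 h the libraries of some members lay on opposite sides of vehicle in CFs and NRVMs, with no overlap with vehicle in either. This held for 11 of 29 members tested in both with ENPP1+ATP, 8 with AMP and 5 with ATP, beside 18.0%, 18.5% and 14.3% of 10945 genes with the same symbol in both tables. Of them 9, 7 and 2 were called in both cell types, and the exceptions were Pkm and Higd1a with ENPP1+ATP, Ankrd37 with AMP, and Gapdh, Eno1 and Kdm3a with ATP. These differences between the 2 cell types were not tested, since the 2 tables were normalized separately. The NRVM change minus the CF change with ENPP1+ATP was 1.04 for Hk2, 0.83 for Pfkm, −0.43 for Pfkp, 0.89 for Aldoa, 0.38 for Gapdh, 0.23 for Pkm, 0.46 for Egln1, 0.41 for Higd1a, 0.85 for Pdk1, −0.58 for Kdm3a and 0.48 for Bhlhe40. With AMP it was 1.12 for Pfkm, −0.55 for Pfkp, 0.79 for Aldoa, 0.45 for Gapdh, 0.32 for Pkm, 0.59 for Egln1, −1.55 for Ankrd37 and −0.80 for Kdm3a. With ATP it was 0.53 for Pfkm, −0.61 for Pfkp, 0.35 for Gapdh, −0.16 for Eno1 and −0.35 for Kdm3a.

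In single cells, 1 member had an interval above 0 in 1 cell group and below 0 in others, and the difference between groups was not tested. Aldoa had a log2 ratio of ENPP1CKO over control of 0.43 in smooth muscle or pericyte-like cells and of −0.64 to −0.19 in 6 other groups. Cardiomyocyte markers in the smooth muscle or pericyte-like class summed to 6116 CPM for ENPP1CKO and 3413 CPM for control. The markers of the class itself summed to 8960 and 7741 CPM. The part of muscle transcripts in the Aldoa difference was not tested.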

How the results depend on the processing

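Of 334 calls of members in CFs and NRVMs, 0 changed sign under any alternative run, and 228 were lost under none. Scaling by library totals only lost 34, a fit of only the groups compared 18, and DESeq2 and RLE factors 9 each. The fit without the low-count filter lost 7 and the replicate block 2. The replicate numbers were not taken to pair libraries, since not every same-numbered pair had deviations correlated above 0.1. In CFs 6 of 90 same-numbered pairs did (highest 0.277), with 16 of 20 libraries closest to their own number, a hint from the data and not from the design, and in NRVMs 1 of 30, with 6 of 15. With a replicate block the counts of members called went from 1 to 3 for AMP against ENPP1+ATP at 24 h and from 0 to 2 for 48 against 24 h in vehicle. DESeq2 called 3 in each of these 2 comparisons. Without the low-count filter the counts were 3 and 3, with 3 for AMP against ENPP1+ATP at 48 h and 1 for ENPP1 against vehicle at 48 h. For 48 against 24 h in vehicle, library totals gave 1 and a fit of only the groups compared gave 7. The cause of these shifts was not tested. Leaving out 1 library gave 2 to 5 calls for ATP against vehicle at 24 h, 1 to 8 at 48 h, 13 to 20 for AMP against ATP at 48 h, 0 to 1 for 48 against 24 h in vehicle, 7 to 10 for the time difference of ENPP1+ATP, and 2 to 6 for AMP against ENPP1+ATP in NRVMs. In single cells TMM scaling left 7 members higher in ENPP1CKO macrophage-like cells in place of 4, and thinning to 1000 counts left 8 in place of 16 in endothelial-like cells. Thinning turned P4ha1 in fibroblast-like cells from −0.17 to 0.0302 and moved 7 of the other single-cell differences outside their counting intervals, with no change of direction. Counting the Saa3 and Clu cluster with the fibroblast-like cells, chosen after seeing the data, moved 11 of 21 in the same way, among them Gapdh to −0.90 and Aldoa to −0.33. With 1 library per genotype, the counting intervals in single cells hold no spread between animals, and they are widest for members with few counts.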
